A study of Mus musculus with 12 samples.

Results

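Hgd, Rasef, Serpina1a, Slc29a1, Vil1 and Btc are 6 of the 24197 genes in a count table of mouse brown adipose tissue (BAT), the fat depot that produces heat. They were picked by symbol because mutant and control libraries differed widely in them in the cold, so their cold values describe the choice and are given without a test. All 6 passed the filter on low counts and were among the 15265 genes tested. Hgd, Rasef and Serpina1a were higher in mutant libraries in the cold, and Slc29a1, Vil1 and Btc were lower.

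The 12 libraries came from mice aged 8 to 10 weeks and fell into 4 groups of 3: mutants (Adipoq-Cre+; Ebf2 fl/fl) after 1 week at 4 degrees C, controls (Adipoq-Cre-; Ebf2 fl/fl) after the same week, mutants at room temperature (RT), and controls at RT. All animals therefore carried the floxed Ebf2 alleles, and Cre was present in mutants only. Adipoq-Cre acts in adipocytes, so the vessels, immune cells and other non-adipocytes of the tissue keep the gene. Library totals ran from 25835650 to 37927038 counts. Whether replicates came from different animals is not in the labels, and the p-values reflect sample-to-sample spread that may be technical in part or whole.

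The deleted gene, Ebf2, is a member of the early B cell factor (EBF) family of transcription factors, which marks brown fat precursors and takes part in brown adipocyte gene expression. The 6 genes have no common pathway. Hgd encodes homogentisate dioxygenase, an enzyme of tyrosine breakdown best known from liver and kidney. The 6 lie on chromosomes 16 (Hgd), 4 (Rasef), 12 (Serpina1a), 17 (Slc29a1), 1 (Vil1) and 5 (Btc). Rasef encodes a large Rab-type GTPase with EF-hands. Serpina1a encodes an alpha-1-antitrypsin, a secreted inhibitor of serine proteases made mainly by liver. Slc29a1 encodes an equilibrative transporter of nucleosides such as adenosine, Vil1 encodes villin, an actin-binding protein of microvilli, and Btc encodes betacellulin, a ligand of the EGF receptor and of ErbB4.

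Among these libraries, Ebf2 itself had 25.8 ± 3.73 CPM (counts scaled to library size; SD, n = 3) in cold mutants and 45.4 ± 6.03 CPM in cold controls, and 49.7 ± 13.9 CPM in RT mutants and 47.8 ± 16.0 CPM in RT controls. Neither difference was called (edgeR adjusted p = 0.153 in the cold and 0.931 at RT). The RT counts thus do not bear out the mutant label, although counts over the whole gene need not follow the loss of some of its exons. Mutant and control below mean libraries labelled so, and every genotype direction rests on those labels. Mutant cold library 2 held 5 kidney marker transcripts that were at 0 counts in the other 11 libraries. Mutant cold library 3 stood apart, with 270.2 CPM summed over 10 epithelial markers, against at most 27.3 CPM in the other 11 libraries. Skeletal muscle markers also ranged widely within groups, and the 4 libraries richest in them (control RT 1 and 3, mutant RT 3 and control cold 3) were left out in an alternative.

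For Serpina1a the counts depend on how reads were placed, because the mouse has several near-identical copies side by side. Over 1239 coding bases, its transcript was 98.5% identical to Serpina1c, 97.0% to Serpina1b, 96.6% to Serpina1d and 96.5% to Serpina1e in GENCODE M21 (GRCm38). Of its 1845 stretches of 50 bases, 57.6% also occurred in a transcript of another gene. For the other 5 genes no stretch of that length was shared. The coding bases 1101 to 1160 formed the window of 60 bases with the most differences between the 5 copies, at 18 positions against a median of 4 over all windows. They are shown because reads from such a stretch can be told apart, and capitals mark the positions that vary:
Serpina1a: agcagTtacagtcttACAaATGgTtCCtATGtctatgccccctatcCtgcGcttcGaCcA
Serpina1b: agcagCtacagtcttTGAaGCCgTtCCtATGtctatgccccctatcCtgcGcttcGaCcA
Serpina1c: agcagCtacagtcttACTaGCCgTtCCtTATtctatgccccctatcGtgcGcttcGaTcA
Serpina1d: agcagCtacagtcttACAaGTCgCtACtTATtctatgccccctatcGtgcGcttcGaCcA
Serpina1e: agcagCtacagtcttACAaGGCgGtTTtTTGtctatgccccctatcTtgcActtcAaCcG

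Promoter windows, from 250 bases before to 50 after each RefSeq start site (GRCm38.p6, another build than the mm9 used for counting), were found for all 6 genes, with 8 start sites for Slc29a1 and 13 windows in all. Motifs were searched on both strands. The EBF core CCCNNGGG was in 2 of the 13 windows, both of Slc29a1, against 13.7% of all 32851 promoter windows. The EBF palindrome, which is that core with T before and A after it, was in 0 of the 13, against 0.904% of all windows. A direct repeat of the nuclear receptor motif AGGTCA with 1 base between the copies was in 0 of the 13, and 0.0396% of all windows held it. GTTAAT, part of the motif of the liver factor HNF1, was in the Serpina1a window alone, against 7.10% of all windows. A match is a run of letters, not evidence of binding. The Serpina1a window is shown as the one with GTTAAT, the fifth Slc29a1 window for its EBF core and the Vil1 window as one without a match. They lie at chr12:103863570-103863869 (minus strand), chr17:45595481-45595780 (minus strand) and chr1:74409134-74409433 (plus strand), and capitals mark the motif:
Serpina1a: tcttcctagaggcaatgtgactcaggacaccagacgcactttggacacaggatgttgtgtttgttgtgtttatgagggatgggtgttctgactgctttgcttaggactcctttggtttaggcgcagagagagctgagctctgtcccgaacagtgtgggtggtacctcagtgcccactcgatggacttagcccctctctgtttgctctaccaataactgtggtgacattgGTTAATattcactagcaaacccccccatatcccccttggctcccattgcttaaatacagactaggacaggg
Slc29a1: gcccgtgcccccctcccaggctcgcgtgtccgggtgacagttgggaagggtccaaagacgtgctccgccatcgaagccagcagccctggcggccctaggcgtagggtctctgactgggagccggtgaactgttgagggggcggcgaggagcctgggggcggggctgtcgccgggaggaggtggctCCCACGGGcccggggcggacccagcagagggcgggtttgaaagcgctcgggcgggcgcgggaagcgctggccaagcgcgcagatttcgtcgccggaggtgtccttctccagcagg
Vil1: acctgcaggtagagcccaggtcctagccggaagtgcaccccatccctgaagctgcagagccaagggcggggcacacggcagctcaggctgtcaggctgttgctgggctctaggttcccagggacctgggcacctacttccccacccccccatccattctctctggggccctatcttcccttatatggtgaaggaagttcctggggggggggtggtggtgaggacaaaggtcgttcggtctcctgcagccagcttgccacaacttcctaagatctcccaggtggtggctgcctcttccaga

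In the cold, Hgd was close to absent from controls. Mutant libraries had 108, 149 and 126 Hgd counts, against 0, 0 and 4 counts in control libraries. As levels these were 3.52, 5.39 and 3.24 CPM in mutants and 0, 0 and 0.152 CPM in controls. The counts summed to 383 and 4, a ratio of 84.4 with a counting interval of 32.7 to 311 (95%, exact binomial). Every mutant library lay above every control library. In bulk tissue, more cells of a type and more RNA per cell cannot be told apart, for this gene or the other 5. At RT the mutant libraries had 8, 2 and 2 counts and the control libraries 0, 0 and 1, so that the gene was near the floor of 3 counts in both genotypes. The RT ratio was 11.7, with a counting interval of 1.74 to 502. Both intervals cover counting error only and leave out the spread between libraries. The cold interval is no test, since the gene was chosen on that difference. The RT groups did not overlap, but the difference was not called, with a log2 fold change of 3.08 ± 1.25 (SE) and an edgeR adjusted p of 0.186. It was 2.31 without mutant RT library 1, 4.92 without control RT library 3 and 5.21 without the 4 muscle-rich libraries, and was not called in any of these.

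Rasef was found mainly in cold mutants. It had 11.04, 4.71 and 8.57 CPM in cold mutants, against 0.413, 0.263 and 0.305 CPM in cold controls, a log2 fold change of 4.62 ± 0.49 (SE), given as a description. RT mutants had 0.789, 0.432 and 0.940 CPM and RT controls 0.164, 0.363 and 0.122 CPM. The highest RT mutant thus stayed below the lowest cold mutant, while all 3 RT mutants lay above all 3 RT controls. The RT log2 fold change was 1.75 ± 0.48 (edgeR adjusted p = 0.0530), just short of the threshold of 0.05. It was called in DESeq2 (adjusted p = 0.0141) and without mutant cold library 2 (0.0436) or control RT library 2 (0.0328), and was 0.76 without the 4 libraries richest in muscle transcripts (adjusted p = 0.679), a fit that leaves 1 control at RT.

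Serpina1a had 10.4, 5.68 and 9.88 CPM in cold mutants, against 0.482, 0.856 and 0.229 CPM in cold controls (log2 fold change 4.03 ± 0.50 SE, a description). It rose in RT mutants as well, the one member called higher there. RT mutants had 1.65, 0.720 and 2.04 CPM, against 0.219, 0.254 and 0.305 CPM in RT controls, and the groups did not overlap. The RT log2 fold change was 2.49 ± 0.51 (edgeR adjusted p = 0.0132). That call was lost without mutant RT library 3 (log2 fold change 2.20, adjusted p = 0.0509), without control RT library 3 (2.63, 0.0532) and without the 4 muscle-rich libraries (2.225, 0.246), a fit with fewer samples. Mutant library 2 was the lowest of its group for both Rasef and Serpina1a at each temperature, whereas for Hgd it was the highest in the cold.

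The other alpha-1-antitrypsin copies, whose stretches of shared sequence are described above, had fewer counts. Serpina1b to Serpina1e together had between 3.004 and 4.14 CPM in cold mutants and between 0.379 and 0.823 CPM in cold controls, with 1.20 to 1.62 CPM in RT mutants and 0.183 to 0.603 CPM in RT controls. Serpina1a took 70.0% of the counts of the 5 copies in cold mutants and 50% in cold controls. Serpina1c had log2 fold changes of 3.37 ± 0.79 (SE) in the cold and 2.06 ± 0.77 at RT, and Serpina1b of 1.498 ± 0.83 and 2.84 ± 0.97. None of these 4 differences was called (edgeR adjusted p = 0.0682, 0.148, 0.414 and 0.116). The shares are those of the deposited counts, and reads that fit several copies could move them.

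**Figure D1:**
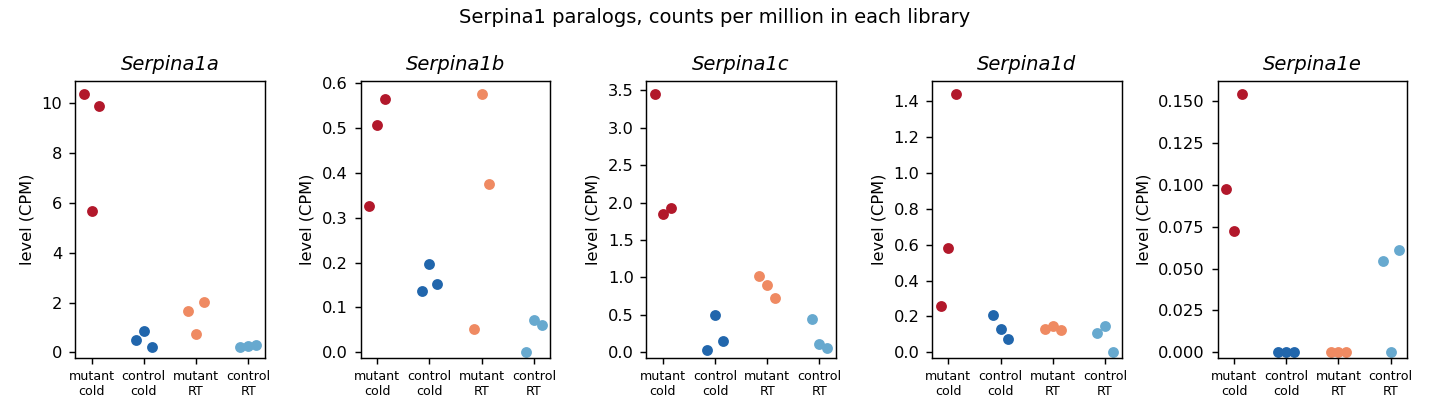
Levels of the 5 Serpina1 copies in CPM (y axis, one scale per panel), 1 point per library, by group (x axis). Serpina1a lies between 5.68 and 10.4 CPM in cold mutants and at most 0.856 CPM in controls at either temperature.

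Slc29a1 was the most abundant of the 6 and fell in mutants at RT. Cold mutants had 30.1, 25.3 and 35.9 CPM, against 142, 130.3 and 130.8 CPM in cold controls, a log2 fold change of -2.14 ± 0.23 (SE, a description). RT mutants had 20.9, 18.7 and 16.4 CPM, against 38.9, 75.1 and 71.0 CPM in RT controls. The RT log2 fold change was -1.72 ± 0.22 (edgeR adjusted p = 0.00141). It was called in all 19 alternatives run, with values between -1.97 and -1.56. The 4 groups did not overlap: RT mutants were lowest, then cold mutants, RT controls and cold controls. In both genotypes the cold level was above the RT level, by 0.71 ± 0.22 on the log2 scale in mutants and 1.12 ± 0.22 in controls.

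Vil1 had the same order at far lower counts. Cold mutants had 1.04, 1.59 and 1.39 CPM (32, 44 and 54 counts), against 5.51, 6.91 and 7.70 CPM in cold controls (160, 210 and 202 counts). RT mutants had 0.942, 1.19 and 0.877 CPM, against 2.49, 3.23 and 2.44 CPM in RT controls, with no overlap. Vil1 fell by 1.44 ± 0.26 on the log2 scale in RT mutants (edgeR adjusted p = 0.00698), and was 2.32 ± 0.26 lower in the cold mutants that led to its choice. The RT call was lost only without the 4 muscle-rich libraries (log2 fold change -1.60, adjusted p = 0.142). RT and cold mutants overlapped, and their difference was 0.42 ± 0.26, while cold and RT controls differed by 1.30 ± 0.25 (SE).

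Btc followed another order, lower in the cold in both genotypes. Cold mutants had 0.326, 0.507 and 0.772 CPM, from 10, 14 and 30 counts, against 3.48, 3.36 and 3.28 CPM in cold controls. RT mutants had 2.85, 3.17 and 2.69 CPM, against 4.58, 6.90 and 5.18 CPM in RT controls. No group overlapped another. The RT log2 fold change of -0.93 ± 0.28 (SE) was not called (edgeR adjusted p = 0.0773), though it was in DESeq2 (0.00769) and without mutant cold library 3 (0.0285). The cold change was -2.42 ± 0.31 in mutants and -0.72 ± 0.28 in controls. 

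**Figure D2:**
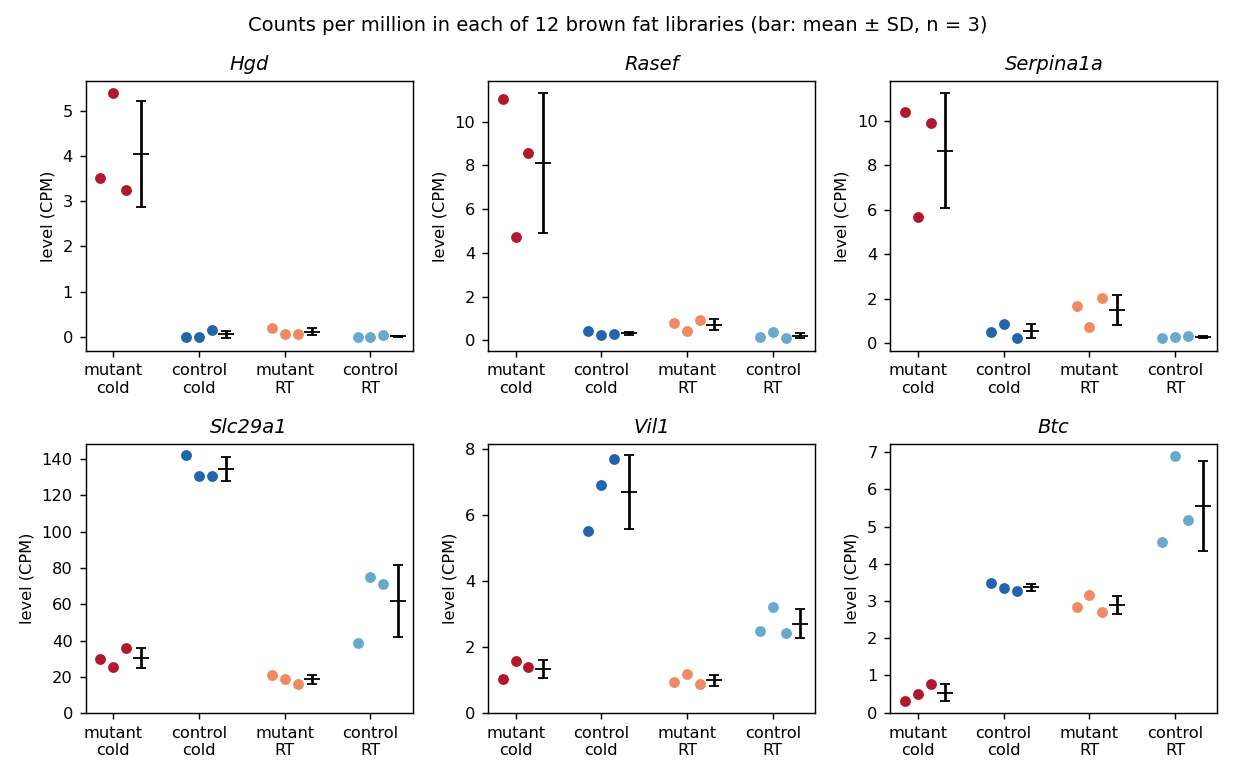
Levels of the 6 genes in CPM (y axis, one scale per panel), 1 point per library, in cold mutants, cold controls, RT mutants and RT controls (x axis); bars are means ± SD (n = 3). Hgd, Rasef and Serpina1a stand high in cold mutants, and Slc29a1, Vil1 and Btc stand low in mutants at each temperature.

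At RT, whose libraries are not part of the cold contrast that led to the choice, 3 of the 6 were called, Serpina1a higher and Slc29a1 and Vil1 lower. The background was 6.24% of all tested genes called at RT, 3.92% higher and 2.33% lower. Hgd passed the filter on low counts only through the cold mutants. The other 5 had groups that did not overlap at RT, each in the direction it had in the cold, against 24.8% of all tested genes without overlap in either direction (12.9% higher and 11.9% lower). In the cold the share without overlap was also 24.8%, not necessarily of the same genes, and 1.12% were called (0.727% higher and 0.393% lower). The members were chosen on the cold contrast, so their ranks in it describe that choice and carry no test. Among the 111 genes called higher in the cold, Hgd ranked 2 by fold change, after Grik4, Rasef ranked 6 and Serpina1a ranked 8. Among the 60 called lower, Btc ranked 4, Vil1 ranked 8 and Slc29a1 ranked 10. The next in rank were Acot5 at 3.62 and Fbp2 at -2.11, as log2 fold changes.

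The difference between the genotype effects at the 2 temperatures uses the cold libraries and is a description. It was 3.21 ± 2.57 (SE, log2) for Hgd, 2.86 ± 0.67 for Rasef and 1.54 ± 0.69 for Serpina1a. For the genes that were lower it was -0.42 ± 0.31 for Slc29a1, -0.88 ± 0.36 for Vil1 and -1.70 ± 0.41 for Btc. Cold against RT within mutants, Hgd differed by 5.07 ± 0.83, Rasef by 3.48 ± 0.45 and Serpina1a by 2.55 ± 0.46. Within controls, Rasef differed by 0.62 ± 0.51 and Serpina1a by 1.01 ± 0.52, and their control ranges at the 2 temperatures overlapped.

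**Figure D3:**
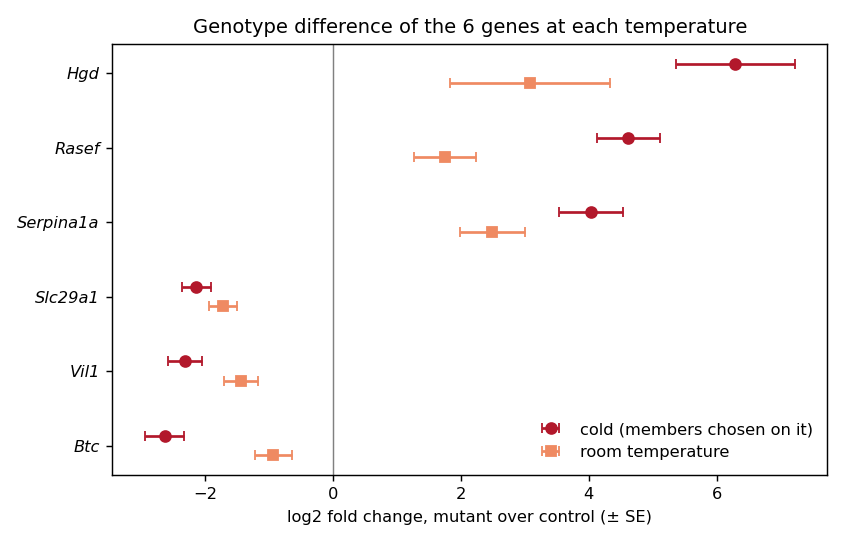
Log2 fold change of mutant over control (x axis, ± SE from edgeR) for each gene (y axis) in the cold, on which the genes were chosen, and at room temperature. Each gene has the same sign at both. Apart from Hgd, the values at room temperature run from 2.49 for Serpina1a to -1.72 for Slc29a1. Hgd, at 3.08 there, passed the filter on low counts only through the cold mutants.

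Levels per kilobase of exon, with lengths from GENCODE M21, put Slc29a1 first in each group. It had 7.59 ± 1.32 CPM per kb (SD, n = 3) in cold mutants and 33.5 ± 1.65 in cold controls, and 4.66 ± 0.56 in RT mutants and 15.4 ± 4.94 in RT controls. In cold mutants Serpina1a came next at 4.72 ± 1.41, then Hgd at 1.55 ± 0.45 and Rasef at 1.41 ± 0.56, which did not differ beyond their spread, then Vil1 at 0.378 ± 0.0784 and Btc at 0.118 ± 0.0497. In cold controls Vil1 came next at 1.89 ± 0.31 CPM per kb, then Btc at 0.746 ± 0.0223, with Hgd last at 0.0194 ± 0.0336.

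By likeness of pattern, measured as the root mean square (RMS) difference between centred log2 CPM values over the 12 libraries, Slc29a1 and Vil1 were the closest pair of members at 0.33, and Rasef and Serpina1a followed at 0.61. Among 14235 other named genes, the closest to Slc29a1 were Cacna1a, a calcium channel subunit gene (0.36), and Arap1, which encodes a GTPase-activating protein (0.38). The same pair was closest to Vil1, at 0.37 for Arap1 and 0.42 for Cacna1a. Cacna1a had 5.25 ± 1.22 CPM in cold mutants and 19.0 ± 1.98 CPM in cold controls, and 2.02 ± 0.25 CPM in RT mutants and 8.84 ± 3.71 CPM in RT controls (SD, n = 3). Closest to Rasef were Arhgef37 (0.77) and the glutamate receptor gene Grik4 (0.84), and closest to Serpina1a were the cannabinoid receptor gene Cnr1 (0.80) and Cbs, cystathionine beta-synthase (0.88). Hgd was nearest to Grik4 (1.16) and Sptlc3, a serine palmitoyltransferase subunit gene (1.23), and Btc to Rragb (0.61) and Otof (0.63). These genes were picked for their likeness, so the measure carries no test.

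Of 36 flanking genes, 3 on each side of each member, 19 passed the filter. At RT 10.5% of the 19 were called, against 6.24% of all tested genes. Of these 1 was called higher, Parm1 beside Btc (log2 fold change 0.76 ± 0.20 SE, edgeR adjusted p = 0.0439), and 1 lower, Tmem63b near Slc29a1 (-0.60 ± 0.13, adjusted p = 0.0167). In the cold 0 of the 19 were called. Outside the Serpina1 cluster their log2 fold changes were at most 0.79 in size at RT and 0.62 in the cold. The most abundant tested neighbours of Hgd and Vil1, Lrrc58 and Ctdsp1, had log2 fold changes of 0.54 ± 0.26 and -0.01 ± 0.16 (SE) in the cold and 0.42 ± 0.26 and 0.01 ± 0.16 at RT. The 6 genes flanking Rasef all had too few counts to test.

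**Figure D4:**
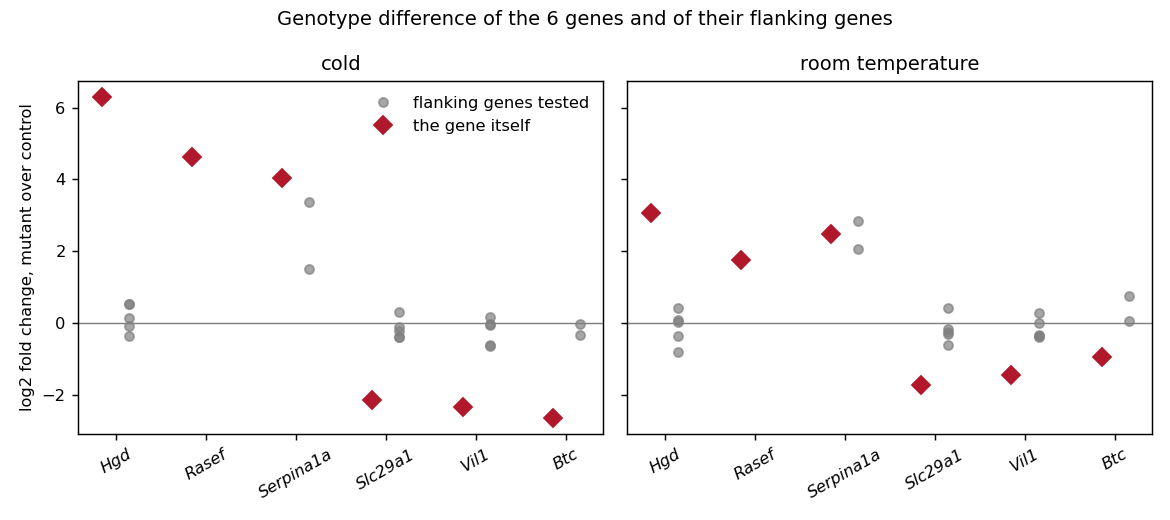
Log2 fold change of mutant over control (y axis) for each of the 6 genes (diamonds) and for those of its flanking genes that were tested (grey points), in the cold and at room temperature. The grey points beside Serpina1a are Serpina1b and Serpina1c, and the other grey points lie within 0.79 of 0.

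Genes of each member's pathway were mostly not called. Over all tested genes, 6.24% were called at RT and 1.12% in the cold. For lists this short, few or no calls are near those shares and say little about a pathway. Among genes of tyrosine breakdown and related steps, 2 of the 7 tested genes other than Hgd rose at RT and 1 in the cold. Of all tested genes, 3.92% were called higher at RT and 0.727% in the cold. The 7 had a median log2 fold change of 0.15 at RT against -0.04 over all tested genes. Gstz1, the enzyme that follows Hgd in the pathway, was higher at both temperatures. It had 457, 413 and 483 CPM in cold mutants, against 216, 274 and 264 CPM in cold controls (log2 fold change 0.84 ± 0.14 SE, edgeR adjusted p = 0.0184). At RT it had 592, 693 and 616 CPM in mutants and 297, 351 and 329 CPM in controls (0.96 ± 0.14, adjusted p = 0.00275). Fah, the last enzyme of the pathway, rose at RT (0.89 ± 0.24, adjusted p = 0.0439) and differed by -0.12 ± 0.23 in the cold, where it was not called. The difference between these effects was not called (adjusted p = 0.236). Hpd, the enzyme before Hgd, had 6.12 ± 0.96 CPM in cold mutants and 3.11 ± 0.58 CPM in cold controls (SD, n = 3) and was not called, and Tat, which begins tyrosine breakdown, had too few counts to test.

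The Serpina family and its target proteases had 1 of 9 tested genes other than Serpina1a called at RT and 0 in the cold. The shares over all tested genes were 6.24% and 1.12%. Serpina3c, another serpin gene, rose at RT to 48.2 ± 7.62 CPM in mutants, against 11.9 ± 1.15 CPM in controls (SD, n = 3; log2 fold change 2.02, edgeR adjusted p = 0.0437). The median log2 fold change of the 9 was 1.92 at RT and 0.79 in the cold, against -0.044 and -0.0086 over all tested genes. The 9 include Serpina1b and Serpina1c, whose counts are not independent of Serpina1a where reads fit several copies. Of 8 tested genes of Rab GTPases and a Rab effector listed with Rasef, 1 was called at RT and 0 in the cold. This was Rab32, at 8.03 ± 1.08 CPM in RT mutants and 3.36 ± 0.23 CPM in RT controls (adjusted p = 0.00520). It had 4.11 ± 0.57 CPM in cold mutants and 3.81 ± 0.79 CPM in cold controls.

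Called genes were 6.24% of all tested genes at RT and 1.12% in the cold. None of 11 tested genes of nucleoside transport and adenosine handling was called with Slc29a1 at either temperature. Its close relative Slc29a2 had log2 fold changes of -0.71 ± 0.22 (SE) in the cold and -0.76 ± 0.22 at RT (edgeR adjusted p = 0.162 and 0.0662), and Adora1, the adenosine receptor gene that was the most abundant of the list, 0.44 and 0.83 (0.485 and 0.115). Among 14 villin family and microvillus genes other than Vil1, Gsn (gelsolin) alone was called. It rose to 3747 ± 346 CPM in RT mutants, against 1288 ± 196 CPM in RT controls (SD, n = 3; adjusted p = 0.00230), the opposite direction to Vil1. None of 13 tested genes of the EGF family was called with Btc. Nrg4, the most abundant ligand gene of that list, had 99.0 ± 19.7 CPM in cold mutants and 90.7 ± 4.30 CPM in cold controls, and an RT log2 fold change of 0.59 ± 0.16 (SE, adjusted p = 0.0501). Egfr, which encodes the receptor of betacellulin, had 13.05 CPM in mutant cold library 3 and 5.47 and 4.89 CPM in the other cold mutants, against 4.58 ± 0.72 CPM in cold controls.

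Markers of other cell types were set beside these results. Without mutant cold library 3, the library rich in epithelial transcripts, the cold log2 fold changes were 6.43 for Hgd, 4.57 for Rasef, 3.92 for Serpina1a, -2.28 for Slc29a1, -2.35 for Vil1 and -3.01 for Btc. The hepatocyte list was carried by Cyp2e1, at 116 to 949 CPM in cold mutants and 81.0 to 250 CPM in cold controls. At RT Cyp2e1 had 593 to 956 CPM in mutants and 119 to 327 CPM in controls, without overlap. It was not called at either temperature. Alb, the albumin gene, was at most 0.603 CPM in any library. The other 15 hepatocyte genes summed to between 8.34 and 11.4 CPM in cold mutants and between 5.54 and 6.36 CPM in cold controls, with 3.32 to 4.00 CPM in RT mutants and 4.11 to 4.30 CPM in RT controls. Much of that sum was Hpd, at 5.57, 5.57 and 7.23 CPM in cold mutants and 2.58, 3.03 and 3.73 CPM in cold controls. Kidney tubule markers summed to 5.61 CPM in mutant cold library 2, the library with the most Hgd, and to at most 1.94 CPM in the other 11. In that library Kap had 96 counts, Umod 8, Slc34a1 6, Slc12a1 4 and Lrp2 2, and all 5 were at 0 in the other 11 libraries. Without it, the cold log2 fold change of Hgd was 6.03, and the other cold mutants had 3.52 and 3.24 CPM of Hgd. Fga (liver) and Sis (gut) were at 0 counts throughout. The other fibrinogen genes, Fgb and Fgg, had 80 and 16 counts in mutant cold library 3 and at most 2 in any other library. Intestinal markers summed to 35.3 to 48.1 CPM in cold mutants and 40.4 to 55.5 CPM in cold controls. At RT they summed to 23.0 to 42.2 CPM in mutants and 35.2 to 52.1 CPM in controls. Most of this sum was Lgals4, at 40.9, 35.4 and 28.3 CPM in cold mutants and 40.5, 35.1 and 46.6 CPM in cold controls. General epithelial markers were lower in RT mutants, as Vil1 was, at 7.85 to 13.003 CPM in RT mutants and 17.5 to 27.3 CPM in RT controls. These sums did not overlap, although 0 of the 8 tested were called. In the cold, where Vil1 was also lower in mutants, the markers summed to 8.11 to 270 CPM in mutants. Cold controls had 2.96 to 14.4 CPM, and 0 were called. The part of these cells in the results was not tested.

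Muscle and eye lens transcripts also varied. The 16 skeletal muscle markers summed to between 101 and 21229 CPM in RT mutants and between 109 and 25877 CPM in RT controls, and were 242 to 6201 CPM in cold mutants and 256 to 10187 CPM in cold controls. The 10 lens markers summed to between 1.04 and 1.504 CPM in RT mutants and between 159 and 707 CPM in RT controls, and 9 of them were called lower at RT. In the cold they were 117 to 201 CPM in mutants and 167 to 227 CPM in controls, with 0 called. The part of muscle transcripts in the results was not tested beyond the fits without the muscle-rich libraries. Those fits keep the lens difference, since it sets every RT mutant library apart from every RT control library. At RT the lens difference cannot be told apart from genotype, and its part in the RT calls was not tested. Brown adipocyte markers summed to 19565 to 36202 CPM in cold mutants and 31610 to 34033 CPM in cold controls. At RT they summed to 16917 to 24922 CPM in mutants and 20301 to 22645 CPM in controls. Of the 15 listed genes, 3 were called higher and 3 lower at RT, and 0 in the cold. Ucp1, one of those lower, had 2019, 718 and 1186 CPM in RT mutants, against 2684, 5616 and 5057 CPM in RT controls (edgeR adjusted p = 0.0199). Fabp4 alone had 13295, 7947 and 9046 CPM in RT mutants. Brown fat transcripts were thus present in each group, though levels of some differed between genotypes at RT.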

How the data were processed

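The authors deposited raw gene counts, whole numbers in 1 column per library. Per the submitters' processing notes they used STAR and featureCounts on mouse build mm9; the annotation, the program versions, strandedness and how multi-mapping reads were handled are not stated there. Per the labels' protocols, total RNA was made into libraries with a NEBNext Ultra kit.

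From these counts, genes passing filterByExpr (minimum count 10, minimum total 15) were fitted in edgeR 4.0.16 (R 4.3.3) over all 12 libraries, with TMM scaling, 1 coefficient per group, robust dispersions and the quasi-likelihood F-test. Adjusted p-values are two-sided, by Benjamini-Hochberg over 15265 genes, and called below 0.05. CPM use TMM-scaled totals, and 3 counts, the floor, equal 0.0763 to 0.114 CPM. The fitting step was tested on simulated data. Those counts were drawn independently for each gene, without the muscle and lens differences that many genes share in these libraries.

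The members and gene lists were chosen with earlier results of these data known. Named beside the members are called or otherwise the most abundant genes of each list and flank, and the 2 genes nearest in pattern. Hpd, Egfr, Slc29a2, Serpina1b and Serpina1c, and the cell type genes, were added after their values were seen. Matched by symbol were all 6 genes in RefSeq and GENCODE. Some items are not reported here.

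The labels number replicates 1 to 3 in every group. Same-numbered deviations from the group means correlated at 0.165, 0.719 and 0.488 between genotypes at RT (log2 CPM, prior count 1). On log2 of CPM plus 1 the first was 0.0577. Between genotypes in the cold the correlations were -0.0306, 0.206 and 0.491. Between cold and RT they were 0.142, 0.647 and 0.456 in controls and 0.0272, 0.151 and 0.577 in mutants. No record gives a pairing, and the main fit did not use the numbers. A replicate block was run as an alternative. DESeq2 1.42.0 and other alternatives are in the closing section.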

Additional observations from a re-analysis of the deposited data

Results flagged for a closer look

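Arhgef37, a guanine nucleotide exchange factor gene named for its likeness to Rasef, had genotype effects that differed between the temperatures (edgeR interaction, adjusted p = 0.00991). It had 33.8 ± 3.23 CPM in cold mutants and 3.61 ± 1.11 CPM in cold controls, against 3.35 ± 0.84 CPM in RT mutants and 2.13 ± 0.24 CPM in RT controls (SD, n = 3). Being near Rasef in pattern already favours such a difference.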

How the results depend on the processing

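For the 6 members, genotype log2 fold changes kept their sign in every alternative run, at both temperatures. The members were chosen for wide differences in the cold, so the cold signs are a description only. At RT, 104 of 113 values stayed on the same side of the threshold, 4 lost a call (Serpina1a 3, Vil1 1) and 5 gained one (Rasef 3, Btc 2). Hgd could not be fitted at RT from the 2 groups alone, since it then failed the filter. The replicate block changed no member's call at RT, and gave 873 called genes at RT and 125 in the cold, against 953 and 171. At RT the count was 1699 in DESeq2, 552 with only the 2 groups compared and 129 without the 4 muscle-rich libraries, which leaves 1 RT control that is assumed to vary like the other groups. In the cold these counts were 745, 102 and 18. Leaving out 1 library gave 395 to 1512 at RT (1512 without mutant cold library 3, 460 and 497 without mutant RT library 2 or 3, 395 without control RT library 3). In the cold it gave 28 to 203 (64 and 97 without mutant cold library 1 or 3, and 59, 44 and 28 without control cold library 1, 2 or 3). For Hgd the fitted cold difference was 10.02 without control cold library 3, which holds its only cold control counts, and its cold change in controls ran from -1.87 to 3.70 when 1 library was left out. The cause of the other shifts was not tested. At 3 counts per library, depth limits what can be said of Hgd in controls and at RT.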
